A study of Mus musculus with 9 samples.

Results

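The insulin-like growth factor (IGF) binding proteins are a family of secreted carriers, and the transcripts of 6 of them, Igfbp2 to Igfbp7, were followed in the gastrocnemius, a fast calf muscle, of female mice. The members were the 6 rows with these gene symbols among the 56791 genes of the deposited count table, and each of the 6 was among the 17534 genes that passed the filter on low counts. RNA sequencing gave 3 libraries in each of 3 groups. Young vehicle mice carry 3M in their sample titles, aged vehicle mice carry 23M, and both received saline by daily gavage over 2 months. Aged GB mice received ginkgolide B, a lactone made by the ginkgo tree, at 12 mg per kg on the same daily schedule, and their titles give no age figure. The sources used here give neither strain nor genotype. They also do not say whether each library is a mouse of its own, so a p-value speaks of the scatter among these libraries, and that scatter may be technical. Whole muscle was sequenced, so fewer cells of a type and less RNA per cell cannot be told apart.

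IGF binding proteins hold IGF-1 and IGF-2 in the blood and in the tissue matrix, and so set how much of either ligand can reach the IGF-1 receptor. They prolong the life of the ligand, deliver it or withhold it, and proteases such as the pappalysins release it by cutting the carrier. In muscle, IGF signalling supports growth, fibre repair and satellite cell differentiation, and Igfbp5 is the member best known from differentiating muscle cells.

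Total counts were 51543383 to 61680520 in young vehicle, 52068522 to 54095457 in aged vehicle and 39478427 to 44294097 in aged GB libraries. Levels are CPM, counts relative to the scaled library size. Summed markers of the muscle fibre, the labelled tissue, were at 86000 to 187000 CPM over the 9 libraries. The GB libraries stood apart: the 50 most abundant genes took 53.5 to 56.6% of their counts against 41.2 to 43.2% in the vehicle libraries, and fewer genes had a count (18678 to 19362 against 22616 to 24185). Mitochondrial genes took 8.6 to 10.2% of counts in young vehicle, 13.9 to 15.3% in aged vehicle and 24.3 to 26.1% in aged GB libraries, and their part in the results was not tested. Fold changes with GB also ran with gene length over the genes tested (Spearman rho -0.345 across genes against aged vehicle, and 0.0187 for aged against young vehicle). The labels give no batch, and library preparation cannot be told apart from treatment. The members' differences with GB are therefore also given with an offset that removes each library's trend with gene length, and with scaling to library totals in place of TMM factors (the trimmed mean of M values). Shares, ratios and ranks within a library do not depend on scaling between libraries. They were computed without the length offset, and a trend with gene length can move them.

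Igfbp3, Igfbp4 and Igfbp5 carried the differences between adjacent groups. Their promoters are shown because these members moved in different directions. The sequences are the 250 bases before the RefSeq start in GRCm38.p6, printed 5′ to 3′ on the gene's strand, with the letters of a TATA-like motif in capitals. Igfbp5 lies at chr1:72874866-72875115 on the minus strand, Igfbp3 at chr11:7213924-7214173 on the minus strand and Igfbp4 at chr11:99040994-99041243 on the plus strand.
Igfbp5: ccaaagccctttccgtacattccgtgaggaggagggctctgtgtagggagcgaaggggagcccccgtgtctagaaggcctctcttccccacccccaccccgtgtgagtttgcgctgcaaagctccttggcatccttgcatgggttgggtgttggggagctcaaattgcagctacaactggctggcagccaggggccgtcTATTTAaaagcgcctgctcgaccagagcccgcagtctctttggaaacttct
Igfbp3: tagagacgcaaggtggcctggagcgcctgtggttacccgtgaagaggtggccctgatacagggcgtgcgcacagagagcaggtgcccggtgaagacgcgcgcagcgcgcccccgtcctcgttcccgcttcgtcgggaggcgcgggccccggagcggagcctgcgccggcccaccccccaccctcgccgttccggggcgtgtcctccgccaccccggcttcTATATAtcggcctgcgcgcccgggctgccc
Igfbp4: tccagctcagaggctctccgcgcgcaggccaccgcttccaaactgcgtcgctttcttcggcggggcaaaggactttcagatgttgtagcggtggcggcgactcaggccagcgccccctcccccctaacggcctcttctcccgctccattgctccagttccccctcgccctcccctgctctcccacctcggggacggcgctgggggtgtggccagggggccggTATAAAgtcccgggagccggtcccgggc
Both strands were searched. TATAAA is found in 12.4% of 32851 mouse promoters of the same length, TATATA in 5.25% of them, and TATTTA in 12.7% of them, and 23.9% hold at least 1. Igfbp4 has TATAAA 28 bases before its start, Igfbp3 has TATATA 30 bases before and Igfbp5 has TATTTA 51 bases before. The other member promoters differ from these. The first of the pair listed for Igfbp2 and the single one for Igfbp7 hold no TATA-like match and carry GGGCGG, a GC box found in 32.7% of promoters, at 3 and 4 places. Igfbp6 has a match on the opposite strand, 148 bases before its start. A match of letters is a description of the window and was not tied to any difference below.

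Igfbp5 transcript fell with age and was lower again with GB. This carrier binds both IGFs, attaches to extracellular matrix and is cut by pappalysins. Its level was 769, 607 and 687 CPM in the young vehicle libraries, 293, 268 and 275 CPM in the aged vehicle libraries and 189, 150 and 162 CPM in the aged GB libraries. Every young library lay above every aged vehicle library, and every aged vehicle library lay above every GB library. In means, 688 ± 81.1 CPM (SD, n = 3) in young muscle stood against 279 ± 13 in aged vehicle and 167 ± 19.8 in aged GB muscle. The fall with age was 2.47-fold (log2 fold change -1.30, SE 0.11, 95% interval -1.53 to -1.08), and edgeR's quasi-likelihood test gave an adjusted p of 3.12e-05. With GB it was lower than in aged vehicle by 1.67-fold (-0.74, SE 0.10, interval -0.96 to -0.51, edgeR adjusted p 6.81e-05). The size of this second difference moved with the scale: it was -0.44 (edgeR adjusted p 0.00431) with the length offset and -1.30 (1.01e-06) with library totals, so the direction and the call held while the size did not. GB libraries were 4.11-fold below young vehicle libraries (-2.04, SE 0.11, edgeR adjusted p 1.3e-08; -1.73 with the length offset and -2.60 with library totals).

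Igfbp4 transcript rose with GB and showed no detected change with age. Igfbp4 is known as a carrier that withholds IGF until pappalysin-1 cuts it. The young vehicle libraries had 67.3, 86.9 and 74.2 CPM, the aged vehicle libraries 83.7, 80.2 and 77.3 CPM and the aged GB libraries 228, 189 and 152 CPM. The 2 vehicle groups overlapped, and the lowest GB library was well above the highest vehicle library. Means were 76.1 ± 9.94, 80.4 ± 3.21 and 190 ± 37.9 CPM (SD, n = 3 each). The rise over aged vehicle was 2.36-fold (log2 1.24, SE 0.14, interval 0.94 to 1.54, edgeR adjusted p 8.21e-06), and over young vehicle 2.49-fold (1.32, SE 0.14, edgeR adjusted p 4.67e-06; 1.44 with the length offset and 0.77 with library totals). With library totals the log2 difference from aged vehicle was 0.68 (edgeR adjusted p 0.00105), and with the length offset 1.33 (9.67e-06). The log2 difference of aged from young vehicle was 0.08 (SE 0.13), and its interval ran from -0.21 to 0.37 (edgeR adjusted p 0.80).

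Igfbp3 transcript rose with age. Igfbp3 is the main IGF carrier of blood plasma, where it joins IGF and the acid labile subunit in a long-lived complex. Its level was 18.1, 18.5 and 17.9 CPM in young vehicle, 27.7, 24.8 and 31.5 CPM in aged vehicle and 26.9, 28.8 and 21.9 CPM in aged GB libraries. The young libraries were close to each other and lay below every library of both aged groups, and those aged groups overlapped. From 18.1 ± 0.295 CPM (SD, n = 3) in young to 28 ± 3.36 in aged vehicle muscle, the rise was 1.54-fold (log2 0.63, SE 0.12, interval 0.36 to 0.89, edgeR adjusted p 0.00812). GB libraries averaged 25.9 ± 3.59 CPM, and their difference from aged vehicle was -0.11 (SE 0.12, interval -0.38 to 0.16, edgeR adjusted p 0.467). Scaled to library totals this difference became -0.68 (edgeR adjusted p 0.000535), and that from young vehicle went from 0.51 (SE 0.12, 0.00399) to -0.05 (0.766). With the length offset the difference was -0.25 (edgeR adjusted p 0.104) from aged vehicle and 0.41 (0.0134) from young vehicle. The place of Igfbp3 in GB muscle thus depends on the scaling.

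The other 3 members passed the test in neither comparison of adjacent groups. Igfbp7, a secreted protein of vessel walls that binds IGF weakly and is also called angiomodulin, had 81.3, 85.3 and 85.5 CPM in the young libraries, 85.2, 96.7 and 101 CPM in the aged vehicle libraries and 157, 98.2 and 93.8 CPM in the aged GB libraries. Aged vehicle overlapped both other groups, and GB library 1 stood far above the other two of its group. The difference of aged from young vehicle was 0.17 (SE 0.16, interval -0.20 to 0.53) and that of GB from aged vehicle 0.30 (SE 0.16, interval -0.06 to 0.66). With the length offset the latter turned to -0.45 (edgeR adjusted p 0.0193), and without GB library 3 it was 0.43 (0.0497), so no direction can be given. Igfbp7 passed against young vehicle (0.47, SE 0.17, edgeR adjusted p 0.0319), but without GB library 1 the value was 0.18 (0.107) and with the length offset -0.28 (0.126). Its exons share 85 bases with Polr2b on the opposite strand, and use of strand in counting is not given in the sources used here, so a part of its counts may belong to that gene.

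Igfbp6, which prefers IGF-2 over IGF-1, had 56.6, 119 and 94.6 CPM in young vehicle, 61.8, 85 and 78.4 CPM in aged vehicle and 108, 94.5 and 81.7 CPM in aged GB libraries. The 3 groups overlapped, with the 2 highest young libraries being numbers 2 and 3, and the spread within the young group was wider than the distance between group means (89.9 ± 31.3, 75.1 ± 12 and 94.7 ± 13.1 CPM, SD, n = 3). Its log2 differences were -0.26 (SE 0.24, interval -0.81 to 0.29) with age and 0.33 (SE 0.24, interval -0.22 to 0.89) with GB, the latter turning to -0.44 with the length offset (edgeR adjusted p 0.13). Against young vehicle the value of 0.07 (SE 0.24) became -0.69 with that offset (edgeR adjusted p 0.0267). Summed skin markers were at 43.4 and 31.7 CPM in young libraries 2 and 3 and at 1.52 CPM in young library 1, and their part in the level of Igfbp6 was not tested.

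Igfbp2, a carrier with an integrin-binding motif, was close to the limit of detection in every group. It had 65, 10 and 12 counts in young vehicle, 51, 13 and 26 counts in aged vehicle and 41, 19 and 4 counts in aged GB libraries, or 0.128 to 1.3 CPM. The highest value of each group was in the library numbered 1. Intervals were wide for age (log2 0.22, SE 0.88, interval -1.69 to 2.13) and for GB (0.39, SE 0.89, interval -1.54 to 2.32), and they span changes of a few fold in either direction. The spread between libraries (coefficient of variation 104, 69.3 and 89% in the 3 groups) was above that from counting alone (18.6, 18.3 and 21.7%). Igfbp1, the liver member of the family, had 3 counts in young library 1 and none in the other 8 libraries, and a count of 0 allows up to 0.0432 to 0.096 CPM there for counting error. It was not tested.

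**Figure D1:**
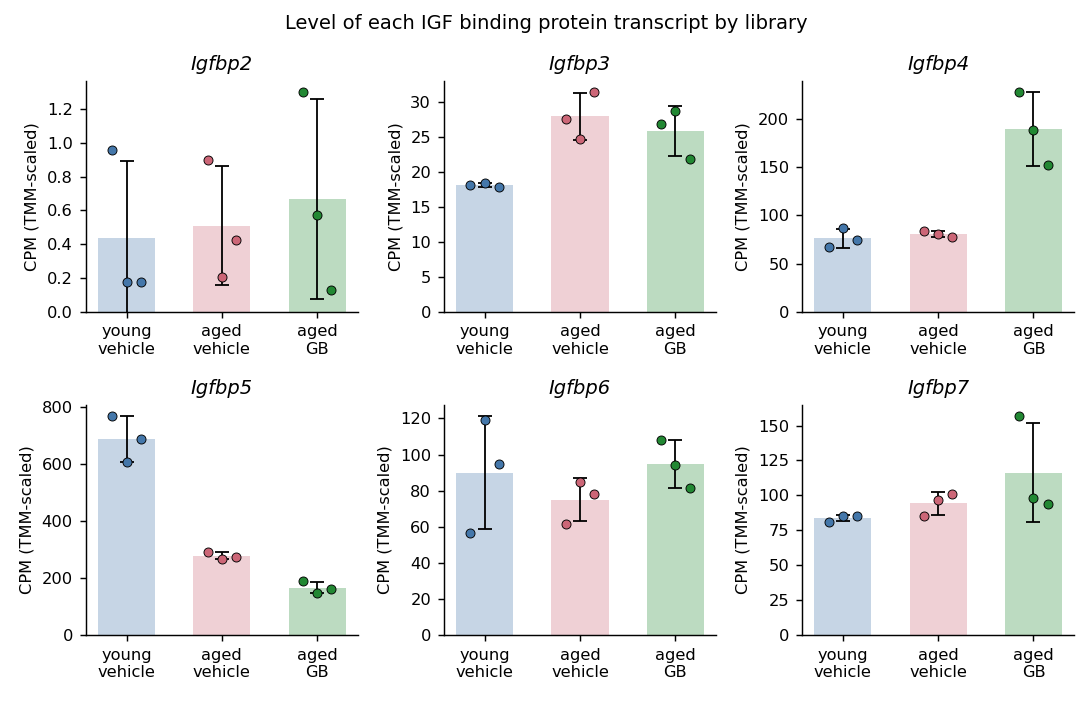
Level of each member in TMM-scaled CPM (vertical axes from 0, each with its own range) by group; points are libraries, bars are means and whiskers 1 SD of 3 libraries. Igfbp5 steps down from 607 to 769 CPM in young to 150 to 189 CPM in GB muscle, Igfbp4 stands at 152 to 228 CPM in GB muscle, above each vehicle library, and Igfbp3 is lowest in the young libraries.

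Counted over the family, 2 of 6 members passed the edgeR test with age, 1 up (Igfbp3) and 1 down (Igfbp5), where 8.60% of all genes tested passed. With GB against aged vehicle 2 of 6 passed, Igfbp4 up and Igfbp5 down, where 53.2% of all genes passed (4281 up and 5045 down), so the share of members is below that of all genes and is no result about the family. Against young vehicle 4 of 6 passed (3 up and 1 down) where 53.6% of all genes did. With library totals the split of all genes with GB was 2030 up and 8421 down. The libraries of the groups did not overlap for 2, 2 and 4 members in that order, where 34.4, 59.7 and 60.7% of all genes did not overlap, so nothing is read from these counts. The median log2 difference over the 6 members was 0.12, 0.32 and 0.49, beside 0, -0.05 and -0.09 over all genes. Both medians of the members with GB changed sign with the scale: they were -0.35 and -0.11 with the length offset (0 and -0.01 over all genes) and -0.25 and -0.06 with library totals (-0.62 and -0.64 over all genes). The 3 comparisons share libraries, so their values are not independent of each other.

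**Figure D2:**
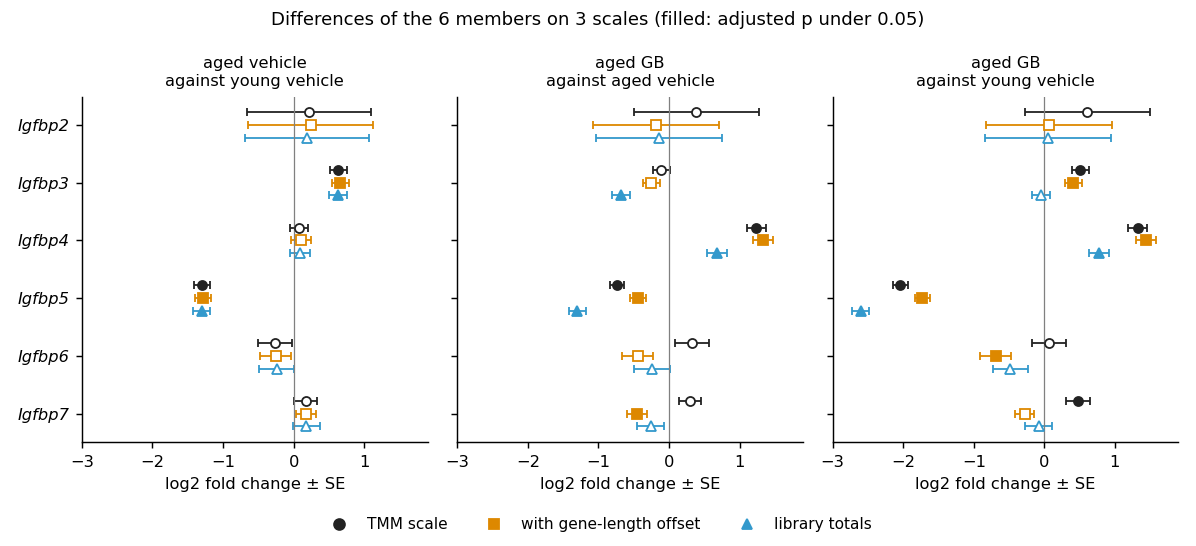
Log2 fold change ± SE of the 6 members in 3 comparisons, on the TMM scale (circles), with the gene-length offset (squares) and with library totals (triangles); filled symbols have an edgeR adjusted p under 0.05. The 3 scales lie together for age, while for GB they spread, and Igfbp4 and Igfbp5 are filled on each of them.

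Levels of different members can be compared per length, here as CPM per kilobase of the deposited gene length, which for all 6 equals the merged exon length of GENCODE M21. Igfbp5 made up 33.2 to 47.8% of the family's summed level per kilobase in young vehicle, 19.6 to 24% in aged vehicle and 9.86 to 12.3% in aged GB libraries. The share of Igfbp4 was 5.7 to 6.48% in young, 7.7 to 9.33% in aged vehicle and 15.7 to 17.6% in GB libraries. The ratio of Igfbp4 to Igfbp5 per kilobase was 0.119 to 0.195 in young vehicle, 0.383 to 0.407 in aged vehicle and 1.28 to 1.71 in aged GB libraries, with no overlap between groups, so Igfbp4 passed Igfbp5 in the GB libraries alone. The ratio follows from the 2 members already described and was given no test of its own. No length offset enters these shares and ratios, and Igfbp5 has 6006 bases where Igfbp6 has 1112 and Igfbp7 has 1209. With that offset GB differed from aged vehicle by -0.44 for Igfbp5, -0.44 for Igfbp6, -0.45 for Igfbp7 and 1.33 for Igfbp4. The size of the fall in the Igfbp5 share from aged vehicle to GB thus depends on the length trend.

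The order within the family was the same in the 3 aged vehicle libraries: Igfbp7, Igfbp6, Igfbp5, Igfbp4, Igfbp3 and Igfbp2. In young muscle Igfbp5 came first in libraries 1 and 3 and Igfbp6 in library 2, and their mean levels per kilobase of 115 ± 13.5 and 80.9 ± 28.1 (SD, n = 3) had spreads that meet. In GB muscle Igfbp7 (96.2 ± 29.1 per kilobase) and Igfbp6 (85.1 ± 11.8) differed by less than their spread, and Igfbp4 stood above Igfbp5 in each library. Among the 17534 genes ranked by level per length, Igfbp5 held ranks 211 to 296 in young, 641 to 682 in aged vehicle and 1248 to 1443 in GB libraries. Igfbp4 moved up from 1580 to 1625 in aged vehicle to 834 to 1100 in GB libraries. The family's summed level per kilobase was 268 to 304, 203 to 227 and 220 to 319 CPM in young, aged vehicle and GB libraries, so the young and aged vehicle ranges were apart and the GB range overlapped both. With library totals the ranges were 311 to 340, 222 to 266 and 168 to 254 CPM, so on that scale the GB range lay below the young one and overlapped aged vehicle. The ranks and both sets of totals carry no length offset.

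**Figure D3:**
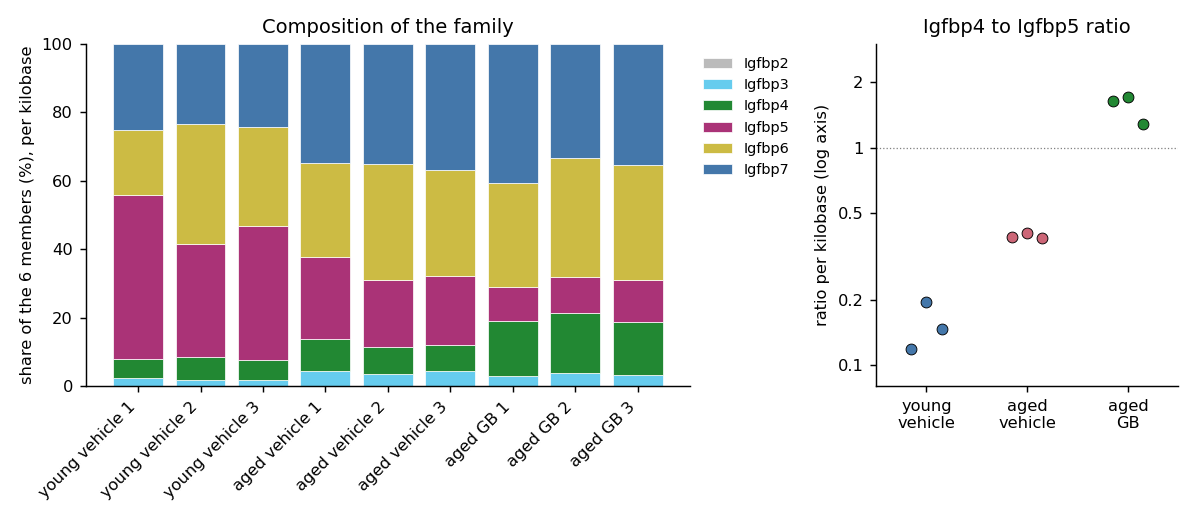
Left, share of each member in the summed level per kilobase of the 6 members in each library (percent); right, ratio of Igfbp4 to Igfbp5 per kilobase on a log axis, 1 point per library, with a dotted line at equality. The Igfbp5 band narrows from 33.2 to 47.8% in young to 9.86 to 12.3% in GB libraries, and the ratio crosses equality in the GB libraries alone. Shares and ratios are without the gene-length offset.

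The ligands that these carriers bind fell with age. Igf1, the main growth factor of the axis, had 22.1, 17.5 and 17.2 CPM in the young libraries, 9.96, 10.7 and 12.9 CPM in the aged vehicle libraries and 14.6, 9.63 and 10.2 CPM in the GB libraries. Young libraries lay above both aged groups, which overlapped. The difference with age was -0.76 (SE 0.17, edgeR adjusted p 0.0185), and it no longer passed without young library 1, aged vehicle library 1 or aged vehicle library 2 (highest adjusted p 0.0758). With GB it was 0.04 (SE 0.18, 0.876) on the TMM scale, -0.53 (0.0352) with library totals and 0.65 (0.0139) with the length offset, so no direction can be given. Igf2, the fetal growth factor, was low throughout, at 1.92 to 2.69 CPM in the young libraries, 0.915 to 0.979 CPM in the aged vehicle libraries and 0.16 to 0.318 CPM in the GB libraries. Its groups did not overlap, and the log2 differences were -1.28 (SE 0.34, edgeR adjusted p 0.0365) with age and -1.85 (SE 0.39, 0.00149) with GB (-1.59 with the length offset and -2.41 with library totals). The call with age was lost in 7 of 20 alternative fits, among them those without any 1 of aged vehicle libraries 1, 2 and 3 or young libraries 2 and 3 (highest adjusted p 0.159).

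Receptors showed another pattern. The log2 differences with age were 0.16 (SE 0.14) for Igf1r, the signalling receptor of both IGFs, -0.01 (SE 0.09) for Igf2r, which clears IGF-2, and 0.12 (SE 0.10) for the insulin receptor Insr, with edgeR adjusted p of 0.567, 0.954 and 0.526. All 3 fell with GB against aged vehicle. Igf2r went from 101 ± 5.13 to 39.7 ± 3.48 CPM (SD, n = 3; -1.34, SE 0.09, edgeR adjusted p 8.4e-08) and Insr from 102 ± 3.28 to 41.7 ± 4.39 CPM (-1.30, SE 0.10, 4.72e-07). Igf1r went from 25.1 ± 2.34 to 13.5 ± 2.25 CPM (-0.90, SE 0.15, 0.000221). These are long transcripts of 9308 to 16791 bases, and with the length offset the differences were -0.78 for Igf2r (edgeR adjusted p 6.6e-06), -0.53 for Insr (0.000224) and -0.03 for Igf1r (0.884), so the fall of Igf1r is not called on that scale. With library totals they were -1.91, -1.87 and -1.46. Insrr, an insulin receptor relative, had at most 18 counts in a library, and its differences of -1.12 (SE 0.95, edgeR adjusted p 0.545) with age and 0.33 (SE 1.02, 0.812) with GB did not pass.

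Igfals, the acid labile subunit that joins Igfbp3 and IGF in the plasma complex, had 6.65, 6.26 and 5.38 CPM in the young libraries, 2.97, 3.39 and 2.61 CPM in the aged vehicle libraries and 4.83, 5.01 and 3.74 CPM in the GB libraries. The 3 groups did not overlap, and aged vehicle was lowest. It fell with age (-1.03, SE 0.20, edgeR adjusted p 0.00714), opposite to Igfbp3. It rose with GB (0.60, SE 0.20, 0.0242), a call that was lost in 8 of 20 alternative fits, among them those with library totals (0.03, 0.913) and the length offset (0.47, 0.0724). Leaving out aged vehicle library 1 or 3 or GB library 1 or 2 also ended it.

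Of the proteases that cut IGF binding proteins and their stanniocalcin inhibitors, 8 of 9 were tested. None passed with age, where 8.60% of all genes did. With GB 1 rose and 5 fell, where 53.2% of all genes passed. Htra3, a serine protease, rose from 40, 62.2 and 55.1 CPM with vehicle to 125, 123 and 111 CPM with GB in aged muscle, without overlap (1.19, SE 0.16, edgeR adjusted p 4.73e-05; 1.28 with the length offset and 0.61 with library totals). Adam9, a membrane metalloprotease, fell from 75.7, 76.4 and 74.4 CPM to 26.1, 30.1 and 30.7 CPM (-1.38, SE 0.09, edgeR adjusted p 1.06e-07; -1.35 with the offset and -1.95 with library totals). The pappalysin genes Pappa and Pappa2, whose products cut IGF binding proteins, were low, with at most 73 counts in a library. Pappa had 52 to 62 counts in aged vehicle and 4 to 14 counts in GB libraries (-1.89, SE 0.50, edgeR adjusted p 0.00647), and with the length offset its adjusted p was 0.0534. Pappa2 had 13 to 28 counts in aged vehicle and 0 to 4 in GB libraries, and its edgeR adjusted p of 0.0249 became 0.0709 with the offset and also missed the threshold without aged vehicle library 2 or 3 or GB library 1 or 3. The stanniocalcin gene Stc1 had 68 to 142 counts in aged vehicle and 2 to 18 in GB libraries (-2.40, SE 0.61, edgeR adjusted p 0.00552). Adam12, another protease gene of the list, had 48 to 54 and 0 to 8 counts (-2.98, SE 0.79, edgeR adjusted p 0.00707). Both calls held in each alternative fit that included the gene.

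**Figure D4:**
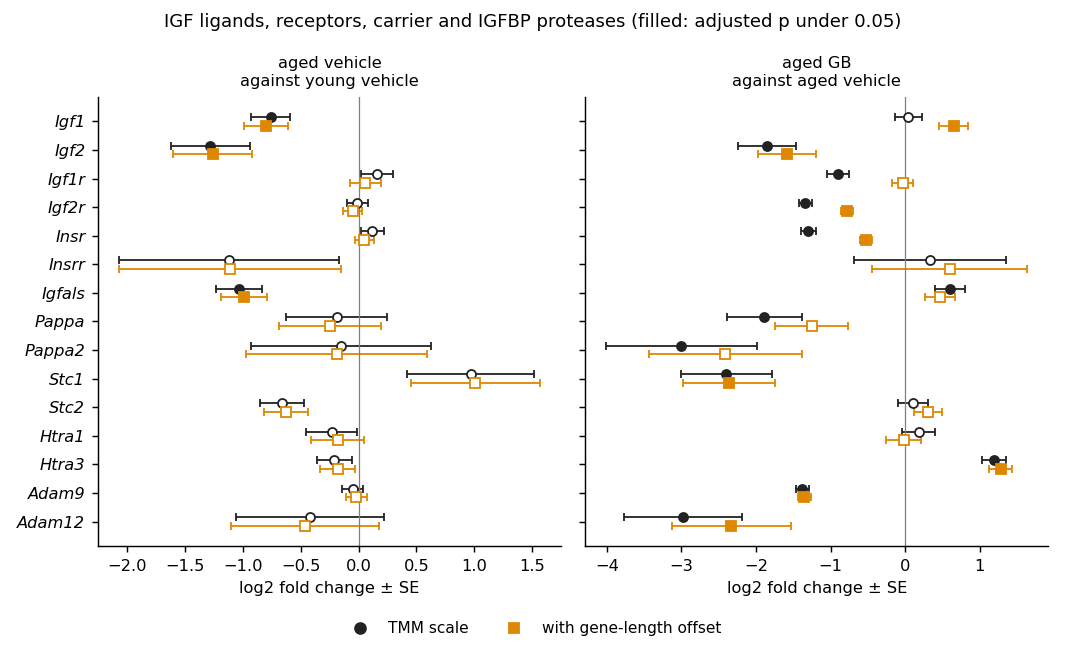
Log2 fold change ± SE of the tested IGF ligands, receptors, acid labile subunit and IGFBP proteases with their inhibitors, for age (left) and GB (right, with a wider axis), on the TMM scale (circles) and with the gene-length offset (squares); filled symbols have an edgeR adjusted p under 0.05. With age only Igf1, Igf2 and Igfals are filled, all below 0; with GB the receptors Igf1r, Igf2r and Insr lie below 0 and shift towards it with the offset.

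Genes that share the IGFBP fold or partner with these proteins were listed too. Ccn1, a matrix-bound relative with an IGFBP-like domain, gave 44.8, 35.1 and 34.5 CPM in the young libraries, 74.7, 61 and 63.3 CPM in the aged vehicle libraries and 110, 88.6 and 88.1 CPM in the GB libraries. Its 3 groups did not overlap. The rise with age was 0.80 (SE 0.13, edgeR adjusted p 0.00256), and the further rise with GB of 0.53 (SE 0.13, 0.00396) was gone with library totals (-0.03) and the length offset (0.05). Kazald1, another gene of the fold, fell with age (11.5 ± 0.6 to 6.78 ± 1.53 CPM, SD, n = 3; -0.76, SE 0.16, edgeR adjusted p 0.0109, lost without aged vehicle library 2 or 3). It rose with GB to 21.8 ± 2.4 CPM (1.68, SE 0.16, 2.41e-06; 1.09 with the length offset and 1.13 with library totals). Tmem219, a receptor described for Igfbp3, went from 3.93 ± 0.136 CPM under vehicle to 10.6 ± 1.37 CPM under GB in aged muscle (1.42, SE 0.17, edgeR adjusted p 1.43e-05; 1.04 with the offset and 0.86 with library totals). Cd93, an endothelial receptor that binds Igfbp7, fell from 46.3 ± 8.32 to 19.1 ± 4.87 CPM (-1.28, SE 0.18, edgeR adjusted p 7.01e-05; -0.91 with the offset and -1.84 with library totals). Fn1, the matrix protein fibronectin, fell with GB by 1.32 on the log2 scale (SE 0.15, edgeR adjusted p 1.13e-05; -0.63 with the offset and -1.89 with library totals) and fell with age by 0.63 (SE 0.14, 0.0193), a call that ended without young library 2 or 3 or any 1 aged vehicle library.

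In the signalling chain below the receptor, 2 of 13 genes rose and 2 fell with age. The forkhead factor genes Foxo1 (1.87, SE 0.26, edgeR adjusted p 0.00268) and Foxo3 (0.77, SE 0.11, 0.00141) rose, and the adaptor genes Irs1 (-0.64, SE 0.16, 0.0274) and Grb10 (-0.57, 0.00733) fell. Grb10 was named after its values were seen, and the Irs1 call was lost in 6 of 20 alternative fits, among them those without young library 2 or 3 or aged vehicle library 1 or 3 (highest adjusted p 0.115). With GB 2 of 13 rose and 9 fell, among them the kinase gene Pdpk1 (-1.57, SE 0.13, edgeR adjusted p 7.13e-07) and Foxo3 (-0.94, SE 0.11, 1.91e-05). With the length offset Pdpk1 was at -0.90 (edgeR adjusted p 0.000109) and Foxo3 at -0.50 (0.00214), and with library totals they were at -2.13 and -1.50. Over the whole axis, 42 of 46 listed genes were tested: 3 rose and 7 fell with age (median -0.12), where 8.60% of all genes passed, and 8 rose and 23 fell with GB (median -0.66), where 53.2% of all genes passed. With the length offset the GB count was 7 up and 14 down (median -0.13), and with library totals 3 up and 28 down.

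Markers of the cell types in whole muscle moved beside these members. Of all genes tested, 8.60% passed with age and 53.2% with GB against aged vehicle, and the counts of markers stand beside these shares. Vascular lists were higher with age, in the direction of Igfbp3: summed endothelial markers were 321 to 356 CPM in the young, 467 to 482 CPM in the aged vehicle and 245 to 317 CPM in the GB libraries, with 2 of 7 markers up and none down with age. Smooth muscle and pericyte markers summed to 413 to 436, 740 to 847 and 444 to 518 CPM, with 3 of 8 up and none down with age. Among them Myh11, a smooth muscle myosin, rose from 29.3 ± 4.27 to 109 ± 2.85 CPM (SD, n = 3; 1.89, SE 0.13, edgeR adjusted p 9e-06) and Pecam1, an endothelial adhesion molecule, from 77 ± 3.47 to 122 ± 1.86 CPM (0.66, SE 0.09, 0.0012). With GB 5 of 8 smooth muscle and pericyte markers and 4 of 7 endothelial markers fell and 1 of each list rose, while Igfbp4 rose and Igfbp3 gave no call on the TMM scale.

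Several other lists held markers that fell with age, as Igfbp5 did. Here too the counts stand beside 8.60% of all genes passing with age and 53.2% with GB against aged vehicle. Tendon markers summed to 308 to 547 CPM in the young, 196 to 294 CPM in the aged vehicle and 65.6 to 110 CPM in the GB libraries (2 of 6 down with age, 5 of 6 down and 1 up with GB). Fibroblast markers were 851 to 1610, 763 to 973 and 575 to 704 CPM (1 of 7 up and 2 down with age, 2 up and 5 down with GB), so young and aged vehicle overlapped. Each of these calls with age was lost in some alternative fits: that of Lum, a matrix proteoglycan gene that rose (0.78, SE 0.19, edgeR adjusted p 0.0307), in 8 of 20, and those of Col1a1 and Pi16, which fell, in 10 and 6. Young libraries 2 and 3 had 1610 and 1600 CPM of fibroblast markers and young library 1 had 851 CPM. Schwann cell markers were 202 to 390, 99.5 to 111 and 144 to 236 CPM (2 of 5 down with age, 3 up with GB), and adipocyte markers 45.7 to 75.2, 25.4 to 33.9 and 56.1 to 112 CPM (2 of 4 down with age, 3 up with GB). The age calls of the tendon gene Fmod, the myelin gene Mbp and the fat cell genes Adipoq and Cidec were lost in 6, 7, 8 and 8 of 20 fits, while that of the tendon gene Kera was kept in all 20. Muscle fibre markers were 120000 to 131000, 86000 to 97300 and 162000 to 187000 CPM (4 of 7 down with age, 5 up with GB). The age calls of the fibre genes Acta1 and Tnnt3 were lost in 4 and 7 of 20 fits, while those of Myh4 and Actn3 were kept in all 20. Macrophage markers were 56.7 to 57.7, 53.6 to 67.2 and 27.9 to 34.5 CPM (none with age, 3 of 4 down with GB), satellite cell markers 6.26 to 7.28, 2.69 to 4.57 and 4.13 to 6.12 CPM (none with age, 1 of 4 up with GB), and skin markers 1.52 to 43.4, 0 to 0.0316 and 0.127 to 0.256 CPM. The skin signal thus lay in the young libraries, mainly numbers 2 and 3. The keratin gene Krt5 and the desmosome gene Dsg1a were at 0 in the other 7 libraries, and Krt14, another keratin gene, was at 0 in 6 libraries, the aged vehicle ones included. No marker was at 0 in all libraries. Without young library 2 or without young library 3 the age difference was -1.39 and -1.30 for Igfbp5 and 0.63 and 0.61 for Igfbp3, and both members passed in each of these fits (highest edgeR adjusted p 0.0446). Each of these fits kept the other library with skin signal, so they cannot tell that signal apart from age. The part of any of these cell types in the values of the IGF binding proteins was not tested.

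Genes whose pattern was most like each member were found by Pearson correlation of log2 CPM over the 9 libraries, which share treatment groups and depth, among 11089 genes (11090 for Igfbp2). Among the genes most like Igfbp5 were Tln2 (0.986) and the myosin binding protein gene Mybph (0.984), and Igfbp4 was most like Mrps10 (0.998), Cdkn1c (0.997) and Mapkap1 (0.997). For Igfbp3 the leading gene was Acta2 (0.94), the smooth muscle actin of the marker list, followed by Slc1a1 (0.936) and Aldh1a1 (0.934). Igfbp7 was most like Degs1 (0.96), Tmem251 (0.958) and Sdhc (0.954), Igfbp6 most like Alg14 (0.926), Pcolce (0.919) and Clec10a (0.892), and Igfbp2 most like the class II histocompatibility genes H2-Aa (0.934) and H2-Eb1 (0.927) and Zc3h12a (0.874). Over the 6 vehicle libraries alone the lists were different: Bak1 (0.998), Map3k10 (0.998) and Tpm3 (0.997) led for Igfbp5, Anks1 (0.999), Atp8b1 (0.995) and Pdhb (0.99) for Igfbp3, and Txn2 (0.992), Isoc2b (0.983) and Ubxn6 (0.975) for Igfbp4. For the other members they were the progenitor and vessel antigen gene Cd34 (0.991), Armc10 (0.985) and Myadml2 (0.972) with Igfbp6, Cntln (0.995), Tmc7 (0.992) and Cav2 (0.991) with Igfbp7, and Rcsd1 (0.99), Rassf1 (0.988) and Nfkbiz (0.986) with Igfbp2. Between members, Igfbp3 and Igfbp5 ran opposite to each other (-0.766 over 9 libraries, -0.938 over the 6 vehicle libraries), as did Igfbp4 and Igfbp5 over 9 libraries (-0.775). Igfbp2 and Igfbp6 (-0.933) and Igfbp5 and Igfbp7 (-0.777) were also opposite over the vehicle libraries. Other pairs ran together, such as Igfbp4 and Igfbp7 over 9 libraries (0.738) and Igfbp3 and Igfbp7 over the vehicle libraries (0.747). These are descriptions of few libraries in separate groups and carry no p.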

How the data were processed

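Gene expression was measured by RNA sequencing of gastrocnemius in 9 libraries, 3 per group, assigned to groups by their titles. The authors deposited raw counts per gene as whole numbers with a gene length column. Per the submitters' processing notes, FastQC, HISAT2, SAMtools and DESeq2 were used, and the builds GRCm39 and mm10 were both named. The sources used here name no read counter, annotation or strand setting. The deposited length equals the merged exon length in GENCODE M21 for 95.2% of 48987 genes matched by symbol. RefSeq sequences matched all 6 members.

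The deposited counts entered edgeR 4.0.16 (R 4.3.3): filterByExpr (minimum count 10, minimum total 15), TMM factors, 1 robust quasi-likelihood fit over the 9 libraries, two-sided p-values adjusted by Benjamini-Hochberg across 17534 genes, and a threshold of 0.05. Each SE is the log2 fold change over the square root of F, and intervals are 95%. Replicates differed by more than sampling noise (chi-square per degree of freedom 16.6 to 60.4), with the library numbered 1 of each group farthest from the other two. The limits given for Igfbp1 cover counting error only, while the 95% intervals also take in the spread between libraries.

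Members and lists were chosen with earlier results of these data known. Genes named are the 6 members, every IGF ligand, receptor and Igfals, and, of each other pathway list and comparison, up to 3 called genes of largest change with at least 2 CPM in the higher group. Of each marker list it was up to 2, and for likeness the 3 genes of highest correlation (prior count 2), without predicted genes and clones. Not every gene of this rule is reported here. Pappa, Pappa2, Stc1, Adam12, Krt5, Krt14, Dsg1a, Lum, Grb10, Acta1, Tnnt3 and Igfbp1 were named after their values were seen. Alternatives were other scalings, filters and tests (DESeq2 1.42.0, limma-voom in limma 3.58.1, robust=FALSE), fits of a single pair of groups, a replicate block, a lowess offset for gene length (span 0.3) and leaving out each library.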

Additional observations from a re-analysis of the deposited data

How the results depend on the processing

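Of 119 values of the members per comparison under 20 alternative settings, 115 kept their direction and side of the threshold with age, 109 for GB against aged vehicle and 104 for GB against young vehicle. Calls of Igfbp5 in the 3 comparisons, of Igfbp4 in both with GB and of Igfbp3 with age held in each alternative run. For Igfbp3 with age the highest edgeR adjusted p with 1 library left out was 0.0496, just under the threshold. Genes called with age numbered 1508, 2400 with DESeq2 and 749 to 2010 when 1 library was left out, with 866 without young library 2, 749 without young library 3, 935 without aged vehicle library 2 and 823 without aged vehicle library 3. Members called against young vehicle numbered 4, and 2 with library totals. With library totals the log2 difference of GB from aged vehicle turned to -0.14 for Igfbp2, -0.24 for Igfbp6 and -0.26 for Igfbp7, and that from young vehicle to -0.05 for Igfbp3, -0.48 for Igfbp6 and -0.08 for Igfbp7. That scaling moved the median of all genes to -0.62 against aged and -0.64 against young vehicle. With the length offset Igfbp2, Igfbp6 and Igfbp7 turned to -0.18, -0.44 and -0.45 against aged vehicle (edgeR adjusted p of Igfbp7 0.0193), and Igfbp6 and Igfbp7 to -0.69 and -0.28 against young vehicle. The cause was not tested. Leaving out 1 library at a time, values that changed sign ranged for Igfbp2 from -0.46 to 1.54 with age, -0.54 to 1.06 for GB against aged vehicle and -0.32 to 1.92 against young vehicle, for Igfbp4 from -0.0023 to 0.18 with age, and for Igfbp6 from -0.18 to 0.31 for GB against young vehicle. Igfbp7 against young vehicle ranged from 0.18 to 0.60 and was called in 4 of 9 such fits. Without GB library 3 Igfbp7 passed against aged vehicle (0.43, edgeR adjusted p 0.0497). Igfbp2 did not enter the fit of genes with at least 1 CPM in 3 libraries. Deviations of same-numbered libraries from their group means showed little correlation over the genes tested (-0.0282 to 0.0566). This cannot tell whether the replicate numbers pair the libraries. With the replicate block 1312, 8958 and 9025 genes and 2, 2 and 3 members were called, and Igfbp7 against young vehicle was lost (0.45, edgeR adjusted p 0.0595). Igfbp2 had 4 to 65 counts a library, and its spread between libraries was above counting error in each group. The part of depth in its wide intervals was not tested. Igfbp1 did not pass the filter on low counts and so was not tested.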

Other observations

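Some members of the family sit beside each other in the genome at very different transcript levels. In the RefSeq gene table Igfbp2 and Igfbp5 are adjacent protein-coding genes on chromosome 1. Igfbp5 was among the 296 most abundant of 17534 genes per length in each young library, while Igfbp2 ranked 12266 at best there. Igfbp1 and Igfbp3 are adjacent on chromosome 11, with 1064 to 1242 counts of Igfbp3 and at most 3 counts of Igfbp1 in a young library.

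Other genes of the IGFBP fold were mostly low. Ccn6, Igfbpl1 and Igfbp1 did not pass the filter on low counts. Ccn2, a matrix protein of the CCN family, had 17.3 ± 3.56 CPM (SD, n = 3) in the young, 24.6 ± 4.7 CPM in the aged vehicle and 26.9 ± 7.6 CPM in the GB libraries, and passed against young vehicle alone (0.63, SE 0.21, edgeR adjusted p 0.025), a call that was lost in 6 of 20 alternative fits, among them those without young library 2 or 3 or GB library 1. Stc2, a stanniocalcin that inhibits pappalysins, was at 9.96 ± 2.04, 6.32 ± 1.02 and 6.83 ± 1.02 CPM, and GB was below young vehicle (-0.55, SE 0.20, edgeR adjusted p 0.0322; -0.32 and 0.186 with the length offset). That call also ended without young library 1 or 3 or GB library 1 or 2.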
